A study of Mus musculus with 2208 samples.

Results

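The genes described here are the galectins and the galectin 3 binding protein in single microglia of the CK-p25 mouse, a model of severe neurodegeneration. They are 6 of the 23951 genes in the deposited table, Lgals3bp, Lgals3, Lgals1, Lgals9, Lgals8 and Lgals4, taken by their gene symbols. They were chosen by gene family with their measured levels in CKp25 and CK mice after induction already known, so those levels are given as a description, with standard errors and without a p-value. CKp25 mice carry a CaMKII promoter-driven tetracycline transactivator and a p25 transgene under its control, so p25, the cleaved form of the Cdk5 activator p35, is made in forebrain excitatory neurons and not in microglia. CK control littermates carry the transactivator alone. Cells positive for the surface proteins CD11b and CD45 were sorted from the hippocampus into 96-well plates, and 1 library was made from each well with the Smart-seq2 method. The CKp25 groups were taken before p25 was induced (0 weeks) and after 1, 2 or 6 weeks of it, and the CK groups at the same times. Mice were 3 months old at 0 weeks, 3 months and 1 week or 2 weeks old at the next times, and 4 months and 2 weeks old at 6 weeks. Each group had 3 mice, except CKp25 at 6 weeks with 4, and the mouse was the replicate throughout.

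Galectins are soluble lectins that bind beta-galactoside sugars on glycoproteins and glycolipids. They are made in the cytosol and leave the cell without a signal peptide, and outside it they cross-link surface receptors. Inside the cell, galectins 3, 8 and 9 bind sugars exposed on the inner face of damaged endosomes and lysosomes. Lgals3bp encodes a secreted, heavily glycosylated scavenger-receptor family protein that binds galectin 3 and is known as an interferon-inducible gene in several cell types. Galectin 3, also called Mac-2, is a classical marker of activated macrophages and of activated microglia.

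Promoter sequences are shown for the 3 members with the largest differences in mean log2(FPKM + 1) between the genotypes at 2 weeks, because interferon-induced genes often carry a repeat of the letters GAAA near their start. The sequences are those of RefSeq on GRCm38.p6 and run from 250 bases before the annotated start through the first 30 bases of the transcript. They are read 5′ to 3′ on the gene's own strand. Capitals mark matches to GAAANNGAAA or GAAANNNGAAA on either strand. The Lgals3bp promoter lies at chr11:118401930-118402209 on the minus strand, that of Lgals9 at chr11:78984895-78985174 on the minus strand, and that of Lgals3 at chr14:47373610-47373889 on the plus strand.
Lgals3bp: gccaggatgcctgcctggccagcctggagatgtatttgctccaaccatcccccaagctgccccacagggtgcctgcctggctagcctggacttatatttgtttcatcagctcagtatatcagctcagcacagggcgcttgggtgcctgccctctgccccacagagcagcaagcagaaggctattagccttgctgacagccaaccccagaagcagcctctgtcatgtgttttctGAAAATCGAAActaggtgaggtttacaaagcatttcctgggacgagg
Lgals9: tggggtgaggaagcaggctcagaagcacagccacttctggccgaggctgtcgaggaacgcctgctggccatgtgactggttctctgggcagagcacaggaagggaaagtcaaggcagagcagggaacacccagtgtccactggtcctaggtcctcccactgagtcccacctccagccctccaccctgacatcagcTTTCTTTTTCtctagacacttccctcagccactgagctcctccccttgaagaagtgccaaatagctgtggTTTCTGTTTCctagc
Lgals3: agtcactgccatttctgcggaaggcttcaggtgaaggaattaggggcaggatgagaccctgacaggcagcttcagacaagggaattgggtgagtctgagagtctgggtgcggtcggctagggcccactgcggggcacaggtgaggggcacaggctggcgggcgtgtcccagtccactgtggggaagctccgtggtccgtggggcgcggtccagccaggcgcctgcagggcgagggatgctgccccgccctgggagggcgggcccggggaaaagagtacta
The Lgals3bp promoter held 1 match to GAAANNNGAAA, GAAAATCGAAA, whose first base was at position -17 from the start. Lgals9 held 2 matches to GAAANNGAAA, both as the reverse complement, starting at positions -55 and 16. The Lgals3 window held neither pattern, and neither did those of Lgals8 and Lgals4. The other pattern searched, TTCNNNGAA, which interferon gamma-activated factors bind, was found in none of the 5 members with a promoter in the table. In the full windows of 300 bases, on both strands, GAAANNGAAA was found in 3.44% of 32851 mouse promoters, GAAANNNGAAA in 2.75% and TTCNNNGAA in 8.30%. Of 7 interferon-induced genes of a list used below that had a promoter in the table, 5 held GAAANNGAAA, 1 held GAAANNNGAAA and 2 held TTCNNNGAA. The pattern with 3 free letters was added after the promoters had been read, and a match is a run of letters, not a shown binding site.

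Of 2208 wells, 2028 (91.8%) had at least 1000 genes at 1 FPKM or more and were kept, where FPKM is a fragment count scaled to transcript length and to the mapped fragments of the library. A kept cell had a median of 1537.5 to 2994 genes by mouse. These group medians averaged 2133 ± 274, 2486 ± 335, 2818.5 ± 274 and 2187 ± 328 genes in CKp25 at 0, 1, 2 and 6 weeks, against 2109 ± 117, 2466 ± 295, 2582 ± 306 and 2113 ± 501 in CK (SD over mice). All 9 microglia markers looked for (such as P2ry12 and Tmem119) were found in every group. Their summed level, the sum over markers of the mean log2(FPKM + 1), was 75 to 78.1 and 66.7 to 73.6 by mouse in CKp25 at 2 and 6 weeks, against 84.8 to 93.4 and 79.6 to 84.9 in CK. Of 25 wells numbered first for their mouse, 19 had over 8000 genes, against 1 other well, and shares that turn on them are also given without them. A gene was tested if it reached 1 FPKM in 10% or more of the cells of at least 3 mice, which 9435 genes did, 4 members among them: Lgals3bp, Lgals3, Lgals9 and Lgals8. Lgals1 and Lgals4 stayed below it, and Lgals3 passed it through CKp25 mice alone.

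Lgals3bp had the largest differences between the genotypes at 1, 2 and 6 weeks on the mean log2(FPKM + 1) scale, though not on every scale (Lgals3 is given on another below). At 2 weeks it was found at 1 FPKM or more in 98.9%, 99.0% and 98.5% of the cells of the 3 CKp25 mice, against 34.4%, 53.1% and 47.8% in CK. At 6 weeks it was found in 100%, 96.5%, 88.5% and 100% of cells in CKp25, against 40.9%, 46.8% and 37.4% in CK. At both times, among kept wells, each CKp25 mouse lay far above each CK mouse, and nearly every CKp25 cell carried the transcript. With no well filter the gap at 6 weeks was smaller: the lowest CKp25 mouse was at 58.4% and the highest CK mouse at 47.9%.

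**Figure D1:**
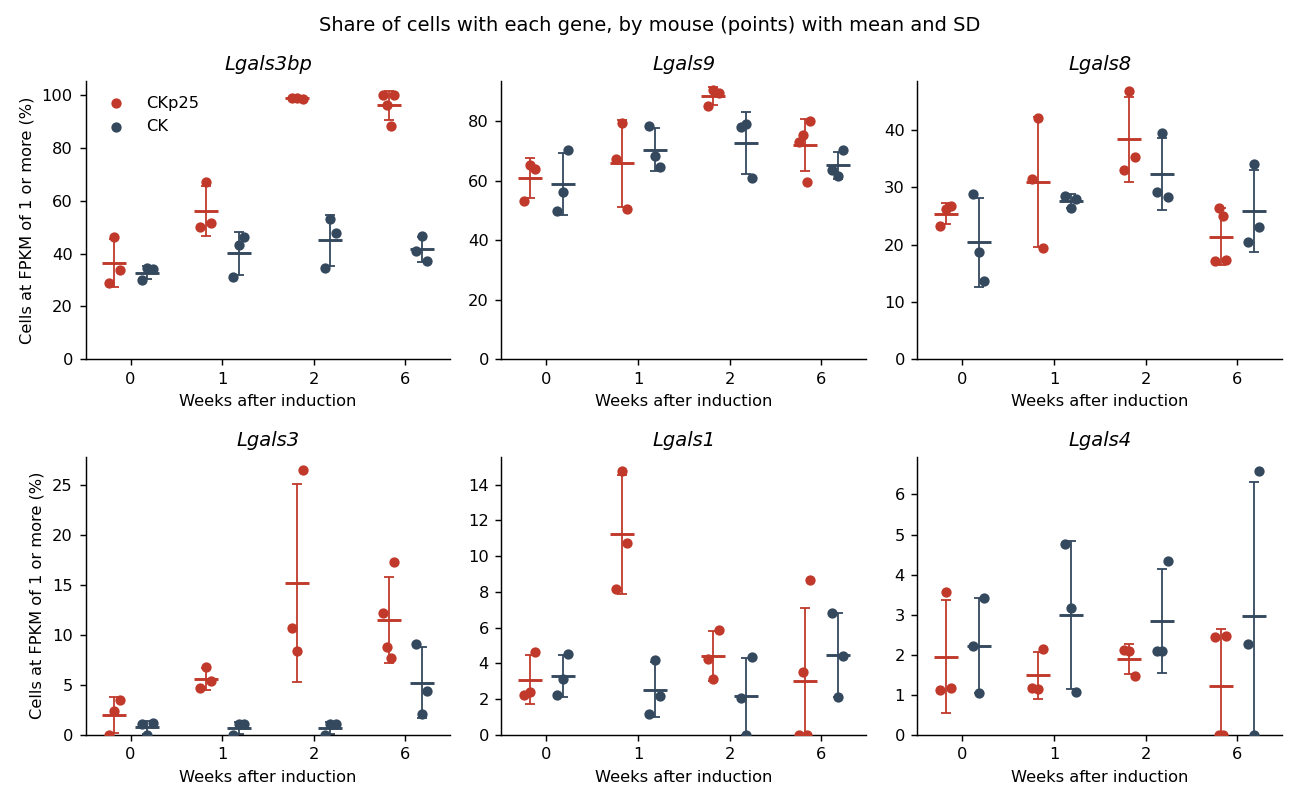
Percent of kept cells at 1 FPKM or more for each member (y axis, a panel per gene) by week (x axis), with a point per mouse, a bar at the group mean and whiskers of 1 SD, CKp25 left of CK. Lgals3bp reaches 98.5% to 99.0% of CKp25 cells at 2 weeks, Lgals3 and Lgals1 stay in the minority everywhere, and Lgals9 is in most cells of every group.

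Its mean FPKM per cell was 780, 809 and 879 in the 3 CKp25 mice at 2 weeks, against 33.9, 69.9 and 39.6 in CK. By 6 weeks it was 735, 554, 284 and 677 in CKp25, against 39.8, 21.3 and 30.1 in CK. The group means were 823 FPKM in CKp25 and 47.8 FPKM in CK at 2 weeks, a ratio of 17.2, and 562 FPKM and 30.4 FPKM at 6 weeks, a ratio of 18.5. The third CKp25 mouse at 6 weeks was the lowest of its group in share and in level. It had 52 kept cells of 89 wells, with a median of 1829.5 genes.

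The whole distribution of cells stood higher, not a tail of it. Cells at 100 FPKM or more made up 94.7%, 95.8% and 94.1% of CKp25 cells by mouse at 2 weeks, against 8.33%, 20.8% and 13% in CK. The median cell had 759, 573 and 737 FPKM in CKp25 at 2 weeks, whereas the median was 0 in 11 of the 12 CK mice of all weeks. Among cells with the transcript alone, the median was 762, 574 and 742 FPKM in CKp25 at 2 weeks, against 29.8, 56.7 and 39.6 FPKM in CK. Thus both the share of cells and the level in the cells with it were higher.

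**Figure D2:**
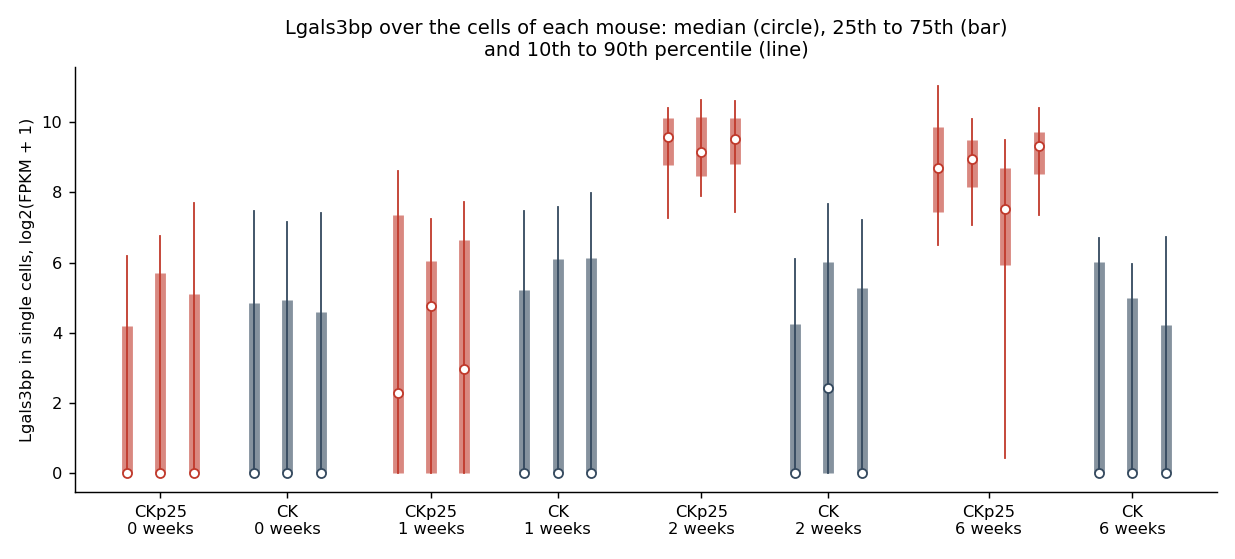
Lgals3bp in cells of each mouse: FPKM on a log2(FPKM + 1) axis against mouse, with the 10th to 90th percentile of cells as a line, the 25th to 75th as a bar and the median as a point, CKp25 left of CK at each week. Medians are 573 to 759 FPKM in CKp25 mice at 2 weeks, and 0 in 11 of 12 CK mice.

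At 1 week, in other mice, Lgals3bp differed less between the genotypes. The group means were 80.9 FPKM in CKp25 and 57.2 FPKM in CK, a ratio of 1.41. Lgals3bp was found in 50%, 67.0% and 51.6% of CKp25 cells, against 31.0%, 43.2% and 46.2% of CK cells. The mice did not overlap, but the highest CK mouse lay close below the lowest CKp25 mouse. The median CKp25 cell had 3.84, 26.0 and 6.77 FPKM by mouse.

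On the scale used for the fits, the mean over cells of log2(FPKM + 1), Lgals3bp was at 3.51, 3.86 and 3.33 in CKp25 at 1 week, against 2.01, 2.60 and 2.84 in CK. At 2 weeks it was at 9.11, 9.13 and 9.20 in CKp25, against 1.86, 3.09 and 2.63 in CK. At 6 weeks it was at 8.63, 8.46, 6.73 and 8.97 in CKp25, against 2.57, 2.36 and 2.04 in CK. The CKp25 minus CK difference was 1.08 ± 0.47 at 1 week, 6.62 ± 0.47 at 2 weeks and 5.88 ± 0.44 at 6 weeks (SE of the limma fit, 17 residual degrees of freedom). The difference was larger at 2 weeks than at 1 week by 5.54 ± 0.67, and at 6 weeks it was 0.74 ± 0.65 below that of 2 weeks, a change close to its SE. In order of level, CKp25 at 2, 6 and 1 weeks came first, at 9.15 ± 0.05, 8.20 ± 1.00 and 3.57 ± 0.27 (SD over mice), each without overlap with the next. The other 5 groups lay at 2.03 to 2.53, and neighbours among them overlapped.

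Across all genes, limma with Benjamini-Hochberg adjustment at 0.05 called 368 genes higher and 37 lower in CKp25 than in CK at 1 week (3.9% and 0.392% of those tested). At 2 weeks it called 579 higher and 211 lower (6.14% and 2.24%), and at 6 weeks 397 higher and 145 lower (4.21% and 1.54%). The split moved with scaling. After quantile normalization of the mouse profiles it was 283 and 119, 528 and 344, and 531 and 357 at 1, 2 and 6 weeks. With the log2 of the mean FPKM it was 96 and 9, 187 and 173, and 290 and 184, and the median of all genes then moved to -0.17, -0.35 and -0.18. Of the 4 members tested, 0 were called at 1 week, 2 higher at 2 weeks (Lgals3bp and Lgals3) and 1 higher at 6 weeks (Lgals3bp). Members whose CKp25 mice all lay above all CK mice numbered 2, 3 and 1 of 4 at 1, 2 and 6 weeks, beside 12.7%, 12.9% and 6.22% of all genes tested. Because these contrasts were known when the genes were picked, nothing is read from these counts.

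**Figure D3:**
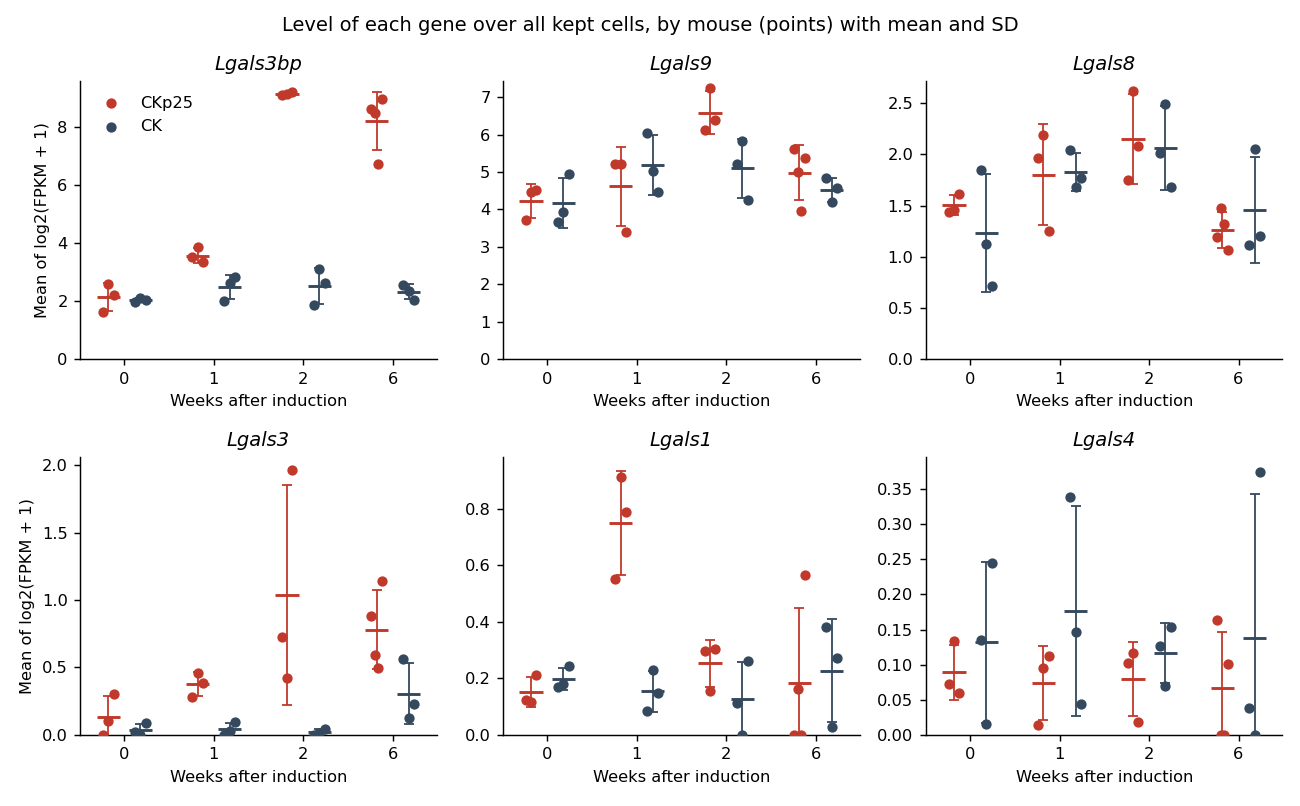
Mean over cells of log2(FPKM + 1) (y axis) for each member by week (x axis), with a point per mouse, a bar at the group mean and whiskers of 1 SD, CKp25 left of CK; the y scale differs between panels. Lgals3bp stands at 9.11 to 9.20 in CKp25 at 2 weeks, against 1.86 to 3.09 in CK, while Lgals8 overlaps between the genotypes at each week.

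Galectin 3, which Lgals3bp binds, had a small share of cells in every group. It was found in 10 of 94, 8 of 96 and 18 of 68 cells in the CKp25 mice at 2 weeks (10.6%, 8.33% and 26.5%), against 0 of 96, 1 of 96 and 1 of 92 in CK. A count of 0 of 96 cells allows a share of up to 3.13% (3 cells, counting error only). Both of those CK cells were wells numbered first, and without such wells the shares averaged 14.5% in CKp25 and 0.00% in CK. The third CKp25 mouse had the highest share, and the genotypes did not overlap.

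At 6 weeks galectin 3 was found in 5 of 41, 5 of 57, 4 of 52 and 14 of 81 CKp25 cells (12.2%, 8.77%, 7.69% and 17.3%). In CK it was then found in 4 of 44, 1 of 47 and 4 of 91 cells (9.09%, 2.13% and 4.40%). The highest CK mouse lay above 2 of the 4 CKp25 mice, so the groups overlapped. At 1 week it was found in 4.65%, 6.82% and 5.38% of CKp25 cells, against 0%, 1.05% and 1.08% of CK cells, with no overlap.

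The level of galectin 3 in the cells that had it was not low. Its median among them was 117, 33.5 and 160 FPKM in CKp25 mice at 2 weeks and 158, 107, 101 and 116 FPKM at 6 weeks. In mean log2(FPKM + 1), galectin 3 was at 0.73, 0.42 and 1.97 in CKp25 at 2 weeks, against 0, 0.01 and 0.04 in CK. At 6 weeks it was at 0.88, 0.59, 0.50 and 1.14 in CKp25, against 0.56, 0.13 and 0.23 in CK. The differences were 0.33 ± 0.24, 1.02 ± 0.24 and 0.47 ± 0.23 at 1, 2 and 6 weeks. These SE share 1 spread over all 8 groups, though the SD over mice was 0.82 in CKp25 and 0.02 in CK at 2 weeks. In a fit to only the 2 groups compared, the SE was 0.08, 0.39 and 0.19 at 1, 2 and 6 weeks. The shared SE is thus wider than the mice of 1 week give and narrower than those of 2 weeks give. The value at 2 weeks leaned on the third CKp25 mouse: without it the difference was 0.56. Its mean FPKM per group at 2 weeks was 33.9 in CKp25 and 0.0625 in CK, and no ratio is drawn from the few CK cells. With the log2 of the mean FPKM its differences were 2.78, 4.17 and 2.29 at 1, 2 and 6 weeks, against 0.45, 4.15 and 4.12 for Lgals3bp, so the order of the pair at 1 and 2 weeks depends on the scale.

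Monocytes and macrophages outside the parenchyma can also make galectins 1 and 3. The summed level of 6 monocyte markers was 1.34 to 1.49 by mouse in CKp25 at 2 weeks, with Chil3 and F13a1 at 0, against 0.12 to 0.81 in CK. At 6 weeks it was 0.39 to 1.26 in CKp25 and 0.30 to 0.80 in CK, and at 1 week 0.41 to 0.47 in CKp25 and 0.36 to 0.64 in CK. In CKp25 cells without galectin 3 at 2 weeks, the monocyte markers Plac8, Ccr2 and Ly6c2 were found in 14.0%, 7.66% and 1.80%. In CK cells without it, all weeks pooled, these were 0.802%, 6.92% and 0.10%. Of these, Plac8 differed most, so the sum at 2 weeks does not show that the markers rose as a set. The summed level of 5 border-associated macrophage markers was 0.11 to 0.29 in CKp25 at 2 weeks, against 0.17 to 1.53 in CK, and 1.14 to 1.61 at 6 weeks, against 0.56 to 1.19 in CK. Of the 36 galectin 3-positive CKp25 cells at 2 weeks, 1 had 2 or more monocyte markers and 0 had 2 or more border-associated macrophage markers, and their median number of microglia markers was 9 of 9. Among the 222 CKp25 cells without galectin 3 at 2 weeks these numbers were 7 and 0. Other weeks differed. Of the 28 galectin 3-positive CKp25 cells at 6 weeks, 4 had 2 or more monocyte markers, 3 had 2 or more border-associated macrophage markers and 3 had 2 or more dendritic cell markers, against 1, 8 and 0 of the 203 cells without galectin 3. Of the 15 positive cells at 1 week, 2 had 2 or more monocyte markers and 3 border-associated macrophage markers, against 2 and 2 of the 252 cells without. Wells numbered first made up 2 of the 36, 3 of the 28 and 3 of the 15 positive cells. Among the 222, 203 and 252 cells without galectin 3 they numbered 1, 1 and 0. These marker counts were not taken without such wells, and their part in them was not tested. The part of cells with markers of another identity in the galectin 3 shares was not tested either.

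Galectin 3-positive cells of the 7 CKp25 mice at 2 and 6 weeks were set against the cells without it for 4 genes of phagocytic activation, of which Cst7, Clec7a and Itgax were found more often in every mouse and Axl was not. The 4 genes are those of their list with the smallest p between the genotypes over 1, 2 and 6 weeks. Without first wells there were 59 cells with galectin 3 and 423 without it. By mouse, the cells with it numbered 10, 7 and 17 at 2 weeks and 5, 4, 3 and 13 at 6 weeks. Each mouse counts the same in the means below, so some shares rest on few cells. Cst7, a cysteine protease inhibitor, was found in 90.7% ± 9.7 of the cells with galectin 3 and 63.2% ± 12 of those without (SD over 7 mice), and the share was higher in 7 of 7 mice. Clec7a, a beta-glucan receptor, was found in 93.5% ± 8.9 and 62.1% ± 9.4, and Itgax, the integrin CD11c, in 74.0% ± 15.7 and 42.3% ± 7.9, each higher in 7 of 7 mice. Axl, a phagocytic receptor, did not follow them, at 88.8% ± 15.5 and 83.3% ± 8.9 (3 of 7 mice). P2ry12, a receptor of homeostatic microglia, was at 87.4% ± 13.4 and 94.4% ± 2.7, with a higher share in the cells with galectin 3 in 3 of 7 mice. The cells with galectin 3 also had more genes detected in 7 of 7 mice, and the part of that difference in these shares was not tested.

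Galectin 1, a small dimeric galectin, stood apart in time. At 1 week it was found in 7 of 86, 13 of 88 and 10 of 93 cells of the CKp25 mice (8.14%, 14.8% and 10.8%), against 1 of 84, 4 of 95 and 2 of 93 in CK (1.19%, 4.21% and 2.15%). The groups did not overlap. At 2 weeks it was found in 4.26%, 3.12% and 5.88% of CKp25 cells, against 2.08%, 0% and 4.35% of CK cells. By 6 weeks it was found in 0%, 3.51%, 0% and 8.64% of CKp25 cells, against 6.82%, 2.13% and 4.40% of CK cells. At both of the later weeks the genotypes overlapped. The level of galectin 1, as mean log2(FPKM + 1), was 0.55, 0.91 and 0.79 in CKp25 at 1 week, against 0.08, 0.23 and 0.15 in CK, and the CKp25 group at 1 week, at 0.75 ± 0.18 (SD), was the highest of the 8 groups with no overlap with the next. Without first wells its share at 1 week averaged 10.2% in CKp25 and 1.83% in CK. It was too rare to enter the fit, and no test was made.

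In CKp25 at 1 week, 27 cells with galectin 1 were set against 237 without it, first wells left out. The share with the cell cycle gene Mki67 was 41.7% ± 14.4 with galectin 1 and 20.0% ± 3.7 without (SD, higher in 3 of 3 mice). That of a second cell cycle gene, Top2a, was 37.0% ± 17.9 and 22.3% ± 0.87, higher in 2 of 3 mice. Cst7 was found in 65.7% ± 20.5 of the cells with galectin 1 and 19.3% ± 9.9 of those without (3 of 3 mice), and P2ry12 in 100% and 98.7%. More genes were detected in the cells with galectin 1 in 3 of 3 mice. Galectins 1 and 3 were also found in the same cells, though in few. Without first wells, galectin 3 was in 3 of 27 CKp25 cells with galectin 1 at 1 week (and in 9 of 237 without it), 3 of 9 at 2 weeks (and 31 of 246 without it) and 3 of 7 at 6 weeks (and 22 of 220 without it). With first wells these were 6 of 30, 5 of 11 and 5 of 9.

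Cells with signs of another identity carried galectin 1 more often. Over all groups, with mice pooled and first wells kept, 35 cells had 3 or more border-associated macrophage markers. Of them 57.1% held galectin 1 and 22.9% galectin 3, against 3.41% and 4.57% of the other cells, with a median of 2961 and 2360 genes. Of 31 cells with 2 or more monocyte markers, 41.9% held galectin 1 and 35.5% galectin 3, against 3.76% and 4.41% of the others, with 3842 and 2359 genes. Among the 25 first wells, with a median of 10011 genes, 64.0% held galectin 1, 56.0% galectin 3 and 36.0% galectin 4, against 3.59%, 4.24% and 1.85% of the other wells. The cells with these markers were not counted without first wells, so another identity and gene-rich wells are not told apart here.

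Galectin 9, a tandem-repeat galectin with a carbohydrate-binding domain at each end, was common in all groups. At 2 weeks it was found in 85.1%, 90.6% and 89.7% of CKp25 cells, against 78.1%, 79.2% and 60.9% of CK cells, with no overlap. Its level was 6.12, 7.24 and 6.39 on the mean log2(FPKM + 1) scale in CKp25, against 5.20, 5.83 and 4.26 in CK, also with no overlap. This was the highest of its 8 groups, at 6.58 ± 0.58 (SD), without overlap with the next, CK at 1 week at 5.18. At 1 week its level was 5.21, 5.22 and 3.41 in CKp25, against 6.04, 5.02 and 4.46 in CK, and at 6 weeks 5.62, 4.99, 3.96 and 5.36 in CKp25, against 4.82, 4.19 and 4.57 in CK. At both times the genotypes overlapped. The differences were -0.56 ± 0.54, 1.49 ± 0.54 and 0.45 ± 0.51 at 1, 2 and 6 weeks, none called. The value at 2 weeks was 0.55 ± 0.38 with the log2 of the mean FPKM and 0.98 ± 0.65 with no well filter, which gave 0.01 at 6 weeks. The value at 1 week was 0.04 without the third CKp25 mouse. The difference was larger at 2 weeks than at 1 week by 2.05 ± 0.76.

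Galectin 8, the other tandem-repeat member and a sensor of damaged vesicles, was in a minority of cells and overlapped between the genotypes throughout. It was found in 33.0%, 46.9% and 35.3% of CKp25 cells at 2 weeks, against 29.2%, 39.6% and 28.3% of CK cells. By 6 weeks it was found in 17.1%, 26.3%, 25% and 17.3% of CKp25 cells, against 20.5%, 34.0% and 23.1% of CK cells. No week had all CKp25 mice on 1 side of all CK mice. Its differences were -0.03 ± 0.32, 0.09 ± 0.32 and -0.19 ± 0.30 on the mean log2(FPKM + 1) scale, and their sign changed with the processing. Over the 8 groups its level ran only between 1.23 (CK at 0 weeks) and 2.15 (CKp25 at 2 weeks), with overlap between all neighbours.

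Galectin 4, known chiefly from the gut, was found in 0% to 6.59% of cells by mouse, and its level averaged 0.07 to 0.18 in the 8 groups. Lgals6 is a near-copy of Lgals4 in some mouse strains, so reads may be split between them and its values are uncertain. Of 8 further galectin-like symbols looked for, 6 were in the table (Lgals2, Lgals6, Lgals7, Lgals12, Lgalsl and Grifin), and 0 passed the filter. Grifin and Lgals7 were found in no cell, Lgals2 in 1 cell, and Lgals6 and Lgals12 in 0 to 3 cells per group each. Lgalsl was found in 4 to 11 cells per group, with 11 in CKp25 at 6 weeks. Thus the galectins detected in more than a small minority of cells were Lgals9 and Lgals8, beside the binding protein Lgals3bp.

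**Figure D4:**
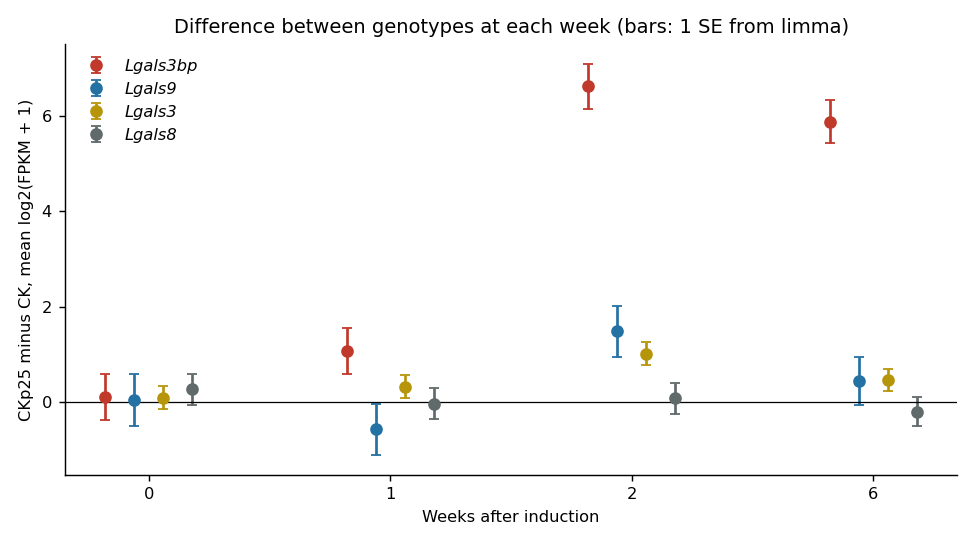
CKp25 minus CK difference of mean log2(FPKM + 1) (y axis) by week (x axis) for the 4 members that were fitted, with bars of 1 SE and a line at 0. Lgals3bp goes to 6.62 at 2 weeks and 5.88 at 6 weeks, Lgals9 and Lgals3 peak at 2 weeks at 1.49 and 1.02, and Lgals8 stays between -0.19 and 0.27.

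Before induction the genotypes were not told apart for any of the 4 members fitted. Lgals1 and Lgals4 were not tested, and the levels of their mice overlapped between the genotypes. At 0 weeks Lgals3bp was found in 28.9%, 46.4% and 33.7% of CKp25 cells, against 30%, 34.4% and 34.1% of CK cells. The difference was 0.11 ± 0.47 for Lgals3bp, 0.10 ± 0.24 for Lgals3, 0.05 ± 0.54 for Lgals9 and 0.27 ± 0.32 for Lgals8 on the mean log2(FPKM + 1) scale. The adjusted p of limma was 1.00 for each. Of the 4 members, 0 had all CKp25 mice above, and 0 below, all CK mice at 0 weeks, beside 4.88% and 2.64% of all genes. Over all genes 0 were called at 0 weeks by limma, and 101 had an unadjusted p below 0.05. For Lgals3, whose spread differs between groups, a fit to only the 2 groups of 0 weeks gave 0.10 ± 0.07. That fit also called 0 genes.

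CK mice also showed no called change with time. Against 0 weeks, Lgals9 differed by 1.00, 0.92 and 0.35 at 1, 2 and 6 weeks in CK (limma adjusted p = 0.508, 0.764 and 1.00), and Lgals8 by 0.60, 0.83 and 0.22 (the same adjusted p). Lgals3bp differed by 0.46, 0.50 and 0.29 (adjusted p = 0.770, 0.814 and 1.00). For all 3 genes the largest of these differences was at 1 or 2 weeks, where the median of all genes was itself higher, by 0.14 and 0.15. Lgals3 in CK at 6 weeks had all 3 mice above those of 0 weeks (9.09%, 2.13% and 4.40% of cells at 6 weeks, against 1.11%, 0% and 1.14%), as did 5.14% of all genes for their levels, with a difference of 0.27. The reverse, all mice of 6 weeks below those of 0 weeks, held for 0 members and 4.36% of all genes. limma called 0 genes in each of the 3 comparisons, with 986, 549 and 277 genes at an unadjusted p below 0.05 at 1, 2 and 6 weeks.

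The members were then compared between classes of cells of the same mouse, a comparison that the choice of members did not use. The genes that define the classes were, however, chosen with earlier results of these data known, so these tests are no independent evidence. Interferon cells had at least 3 of 6 interferon-induced genes, MHC class II cells at least 2 of 4 antigen-presentation genes, and cycling cells at least 2 of 5 cell cycle genes. Mice needed 5 cells on each side. The p-values are from exact 2-sided sign-flip permutation tests over mice, adjusted over the 18 tests made.

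In 7 CKp25 mice of 2 and 6 weeks, Lgals3bp averaged 9.29 on the mean log2(FPKM + 1) scale in 219 interferon cells and 8.19 in 270 other cells. It was higher in 7 of 7 mice, by 1.09 ± 0.53 (SD), and was found in 100% and 96.1% of cells. Lgals9 averaged 6.68 in interferon cells and 5.03 in other cells, also higher in 7 of 7 mice, by 1.64 ± 1.08, and was found in 90.2% and 72.6% of cells. For both the exact permutation p was 0.0156, the smallest that 7 mice can give, and 0.0938 after adjustment, so neither passed 0.05. Adjusted over 18 tests, that smallest p cannot pass unless several other tests also reach it. Not passing is therefore no evidence that a difference is absent. Lgals3 did not share this pattern, at 0.06 (4 of 7 mice, exact permutation test, adjusted p = 0.938). The interferon cells had medians of 2223 to 3423.5 genes by mouse, against 1554 to 2683 in the other cells. Among cells with 1500 to 4000 genes alone, the difference was 0.76 for Lgals3bp and 1.13 for Lgals9, each higher in 7 of 7 mice (exact permutation test, adjusted p = 0.141).

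MHC class II cells (202, against 287 other cells, in the same 7 mice) had Lgals3bp higher by 0.67 ± 0.67 in 7 of 7 mice (exact permutation test, adjusted p = 0.0938). Among cells with 1500 to 4000 genes this was 0.34, in 5 of 7 mice. Lgals3 was found in 19.2% of MHC class II cells and 8.18% of other cells, and was higher by 0.69 ± 0.98 in 6 of 7 mice (exact permutation test, p = 0.109, adjusted p = 0.281). The third CKp25 mouse of 2 weeks had it in 44.8% of MHC class II cells and 12.8% of other cells, and without that mouse the mean difference was 0.40. Among cells with 1500 to 4000 genes of all 7 mice, Lgals3 was higher by 0.37, in 4 of 7 mice.

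Cycling cells were compared in the 6 CKp25 mice of 1 and 2 weeks (98 cycling and 427 other cells, with medians of 2793 to 3994 and 1896 to 2992 genes by mouse). Lgals1 was found in 20.1% of cycling cells and 5.08% of other cells, and was higher by 0.70 ± 0.63 in 5 of 6 mice (exact permutation test, p = 0.0625, adjusted p = 0.225; the smallest possible p is 0.0313). Lgals9, Lgals3bp and Lgals3 were higher by 1.43, 0.90 and 0.42, each in 5 of 6 mice, with adjusted p of 0.225, 0.352 and 0.281 in the same exact tests. The remaining differences, among them those of Lgals8 and Lgals4 in the 3 classes, lay between -0.22 (Lgals9 in MHC class II cells) and 0.25 (Lgals8 in interferon cells). Among cells with 1500 to 4000 genes, 5 mice were left for the cycling class. Lgals1 and Lgals3 were then higher in cycling cells by 0.47 and 0.48, each in 4 of 5 mice. Lgals9 and Lgals3bp were higher by 0.97 and 0.38, each in 3 of 5 mice. None of the 18 tests passed 0.05 after adjustment. With 6 or 7 mice the smallest possible p is too high for a few tests to pass, so nothing is read from this.

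**Figure D5:**
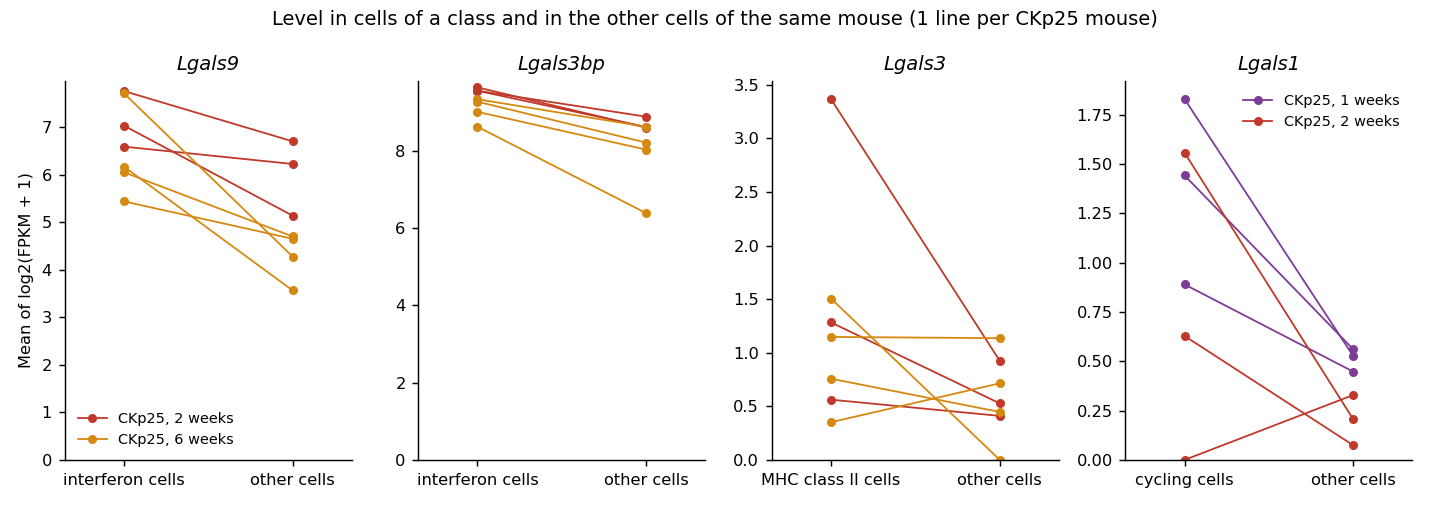
Mean log2(FPKM + 1) (y axis) in the cells of a class and in the other cells of the same CKp25 mouse (x axis), with a line per mouse, for Lgals9, Lgals3bp, Lgals3 and Lgals1, each in 1 class. The lines of Lgals9 and Lgals3bp run higher in interferon cells in 7 of 7 mice, by means of 1.64 and 1.09, and those of Lgals3 and Lgals1 cross.

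The genes whose 25 mouse means ran most like those of Lgals3bp were Slfn2, Oasl2, Cst7, Ifi27l2a and Sp100, each with a Pearson r of 0.98 over 25 mice. The 25 mice share the step between CKp25 at 2 and 6 weeks and the other 6 groups. Therefore r was also taken on either side of it. Steps between groups remain on each side, as the 7 mice are of 2 and of 6 weeks and the other 18 include CKp25 at 1 week. These steps were not removed from r. Within the 7 CKp25 mice of 2 and 6 weeks it was 0.87 for Slfn2, 0.94 for Oasl2, 0.87 for Cst7, 0.93 for Ifi27l2a and 0.78 for Sp100. Within the other 18 mice it was 0.72, 0.54, 0.75, 0.77 and 0.72. For Lgals3 the 5 genes were Oas1g (0.92), Cyp4f18 (0.91), Lilrb4 (0.91), Actr3b (0.90) and Mnda (0.90). Within the 7 CKp25 mice these were 0.90, 0.81, 0.84, 0.91 and 0.86, and within the other 18 mice 0.59, 0.77, 0.62, 0.20 and 0.07. For Lgals9 they were Mvp (0.83), Grcc10, H2-T24, Ap2m1 and Apobec1 (0.81 each), and for Lgals8 Lipo1 (0.81), Opa1 (0.78), Nxt2 (0.78), Bet1 (0.76) and Ric8 (0.76). Between members, r was 0.79 for Lgals3bp with Lgals3 (0.42 within the 7 CKp25 mice and 0.55 within the other 18) and 0.59 for Lgals3bp with Lgals9 (0.85 and 0.20). It was 0.51 for Lgals8 with Lgals9 (0.79 and 0.47) and 0.09 for Lgals8 with Lgals3bp (0.43 and 0.36). These values of r are descriptions, and the mice also differ in the genes detected per cell.

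Of 13 tested counter-receptors, glycoproteins that galectins bind, 1 rose in CKp25 at each of 1, 2 and 6 weeks and 0 fell, beside 3.9%, 6.14% and 4.21% of all genes called higher. It was Cd44, the hyaluronan receptor, by 0.30 ± 0.09, 0.31 ± 0.09 and 0.38 ± 0.08 on the mean log2(FPKM + 1) scale. Cd44 was found in 6.79%, 10.1% and 9.34% of CKp25 cells, against 0.702%, 1.78% and 0.758% of CK cells at the same weeks. Of these groups only those of CKp25 averaged near the 10% that the filter asked for. Among mice of these weeks, Cd44 thus entered the test through the groups where it was high, and nothing is read from its call. The integrins Itgb1 (1.20, -0.35 and -1.09) and Itgam (-0.78, -0.60 and -1.16) and the receptor Mertk (-0.44, -1.30 and -0.67) did not pass the test. The list's median difference was 0.12, 0.31 and -0.13, against 0.06, 0.00 and -0.04 for all genes.

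Enzymes that build or cap the sugars galectins bind had 12 tested members, of which 0 rose at any of the 3 weeks and 2 fell at 2 and at 6 weeks, beside 2.24% and 1.54% of all genes called lower. St3gal6, a sialyltransferase that caps galactose, differed by -0.06 at 1 week and fell by 1.70 ± 0.49 at 2 weeks and by 2.37 ± 0.46 at 6 weeks. It was found in 56.4% and 37.1% of CKp25 cells at 2 and 6 weeks, against 73.5% and 69.1% of CK cells. Mgat4a, which adds a branch to N-glycans, fell by 1.38 ± 0.42 and 1.29 ± 0.39. St6gal1 (-0.77, 0.15 and 0.28) and Gcnt1 (-0.41, -1.12 and -0.98) did not pass. The list's median was -0.19, -0.39 and -0.53.

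Of 11 tested genes of the response to lysosome damage, in which galectins 3, 8 and 9 act, 1 passed the test at 2 weeks, beside 6.14% of all genes called higher, and 0 passed at 1 and 6 weeks. It was the membrane-remodelling subunit Chmp4b, by 0.50 ± 0.16. Its related subunit Chmp2a (1.09, 0.39 and 1.16), Vps4a and the transcription factor Tfeb did not pass. The list's median was 0.20, 0.18 and 0.26.

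Interferon-induced genes moved at the weeks at which Lgals3bp was high. Of 10 tested, 0, 10 and 9 rose at 1, 2 and 6 weeks, and 0 fell, beside 3.9%, 6.14% and 4.21% of all genes called higher. The median difference was 0.23, 3.23 and 2.70. Rtp4 differed by 4.92 and 3.53 at 2 and 6 weeks, Oasl2 by 3.36 and 3.00, Ifit3 by 2.33 and 1.73, and Ifitm3 by 6.22 and 4.48. Of 11 tested genes of phagocytic activation, 2, 10 and 9 rose at the 3 times, beside the same shares of all genes, and 0 fell, with medians of 0.74, 2.29 and 2.32. Cst7 rose already at 1 week, by 1.73 ± 0.45, and by 6.14 and 4.89 later. Clec7a rose by 4.14 and 4.35 and Axl by 5.01 and 4.33 at 2 and 6 weeks. The difference of Lgals3bp, 6.62 and 5.88, was above the value of each of these named genes at both weeks. Both lists were chosen with earlier results of these data known, so their direction is no independent evidence. The same holds for the lists of counter-receptors, of sugar-building enzymes and of lysosome damage genes above, and for their counts.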

How the data were processed

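The deposited table holds FPKM values of 23951 genes in 2208 wells of 25 mice, made by the authors with Cufflinks 2.2 on mm9, per the submitters' processing notes; the aligner's settings are not given in the sources used here. FPKM keeps no read count, so depth per cell is unknown here; the series text gives a median of 251353 mapped reads and 2183 libraries, 25 fewer than the columns. In the deposited FPKM, 90.0% of values were 0, and Actb was at 0 in 2.90% and Gapdh in 24.6% of wells, so a 0 can be a missed transcript.

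The members and all lists were chosen with earlier results of these data known. A mouse's level was the mean over kept wells (at least 1000 genes) of log2(FPKM + 1). All 8 groups were fitted in limma 3.58.1 (R 4.3.3; trend and robust, without a replicate block), with p-values adjusted over 9435 genes. Classes of cells were compared within mice by exact sign-flip permutation in Python 3.11.15 (numpy 2.4.6, pandas 2.3.3, scipy 1.17.1). Replicates were separate animals. No doublet caller was run on these sorted single wells. Other genes named were up to 4 per list, by smallest p over 1, 2 and 6 weeks, and the 5 most like each fitted member; of the list symbols, some are not reported here. Promoters came from RefSeq on GRCm38.p6, by symbol, for 5 of 6 members; no coordinate of mm9 is given. The scripts were tested on simulated data. Alternatives changed the pseudocount, the scaling, the filters, the samples fitted and the mice left out.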

Additional observations from a re-analysis of the deposited data

How the results depend on the processing

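The differences of Lgals3bp kept their sign at 1, 2 and 6 weeks in all 35 settings. With the log2 of the mean FPKM they were 0.45, 4.15 and 4.12, and with a pseudocount of 0.1 they were 1.62, 8.42 and 7.70. Leaving out each mouse gave 0.84 to 1.26, 6.28 to 6.90 and 5.62 to 6.36. Lgals3 at 2 weeks was 4.17 with the log2 of the mean FPKM and 0.56 to 1.33 on leaving out each mouse. The side of the threshold on which a member fell changed for Lgals3 in the fit to only the 2 groups compared (0.33 ± 0.08 at 1 week and 1.02 ± 0.39 at 2 weeks), with wells of at least 1500 genes (0.72 ± 0.21 at 6 weeks) and without the third CKp25 mouse of 2 weeks (0.47 ± 0.12 at 6 weeks), and for Lgals9 at 2 weeks without the second CK mouse (1.85 ± 0.58); as these contrasts were known when the members were chosen, nothing is read from that. Lgals8 at 2 weeks turned to -0.50 with the log2 of the mean FPKM, -0.10 with no well filter and -0.02 after quantile normalization. The cause of these changes was not tested.

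Several differences that were not called turned sign. With the log2 of the mean FPKM, Lgals3bp was at -0.14 and -0.75 in CK at 2 and 6 weeks against 0 weeks and at -0.47 in CKp25 against CK at 0 weeks, Lgals9 at -0.05 and Lgals8 at -0.33 in CK at 6 weeks. With no well filter Lgals3bp was at -0.05 and Lgals9 at -0.15 at 0 weeks. In interferon cells Lgals3 was at -0.28 among cells with 1500 to 4000 genes and at -0.10 without first wells. Leaving out each mouse gave -0.11 to 0.37 for Lgals3bp and -0.20 to 0.43 for Lgals9 at 0 weeks, -0.02 to 0.03 and -0.04 to 0.01 for Lgals3 in CK at 1 and 2 weeks, -0.08 to 0.53 for Lgals8 in CK at 6 weeks and -0.09 to 0.16 for Lgals3 in interferon cells. None of the 18 class tests passed 0.05 in 13 settings, but the few mice kept the smallest possible p high in each, so this is no sign of stability.

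Counts of called genes (limma, adjusted p below 0.05) moved more. With no gene filter they were 1 higher and 5 lower in CK at 1 week against 0 weeks, 3 and 6 at 2 weeks, 5 lower at 6 weeks, and 4 higher and 3 lower in CKp25 against CK at 0 weeks. A fit to only the 2 groups compared gave 1 higher gene in CK at 2 weeks, and 194 higher and 9 lower in CKp25 at 1 week. For CKp25 against CK, the log2 of the mean FPKM gave 96 higher and 9 lower at 1 week and 187 higher at 2 weeks. No well filter gave 242 higher and 20 lower at 1 week, 330 higher at 2 weeks and 199 higher at 6 weeks. At 1 week, lower genes numbered 24 with a pseudocount of 0.1 and 21 as TPM. Quantile normalization gave 119, 344 and 357 lower genes at 1, 2 and 6 weeks, and wells of at least 1500 genes gave 261 lower at 6 weeks. Leaving out each mouse gave 0 to 2 higher in CK at 1 week, and in CKp25 205 to 483 higher and 10 to 50 lower at 1 week, 364 to 676 higher and 99 to 257 lower at 2 weeks, and 287 to 468 higher and 62 to 229 lower at 6 weeks. With mouse number as a replicate block the counts were 430 and 43, 652 and 252, and 338 and 161 at 1, 2 and 6 weeks. No member's call changed under the block. The labels tie the numbers to no litter or batch, and a correlation over 0.1 in every same-number pair was needed to take them as pairs; 8 of 12 had one. Of the 12, 8 correlated best with their own number, a hint of a shared effect from the data and not from the design.

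Limits: FPKM gives no counts, so shares of cells depend on an unknown depth per well. Cells with Lgals3 or Lgals1, and cells of each class, had more genes detected than the others. With no well filter Lgals3bp was in 93.1% and 85.3% of CKp25 cells at 2 and 6 weeks as means over mice, and in 58.4% in the lowest mouse of 6 weeks.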
